A study of Mus musculus with 59 samples.

Results

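Gene expression was compared between neuron RNA and glia RNA from mouse sandwich co-cultures on day 3, the earliest of the days sampled (3, 7 and 14). In these cultures neurons and glia were grown as partners, and each library is labelled as the RNA of 1 partner. All culture libraries labelled day 3 were used, whatever the pairing, which gave 13 of the 59 libraries of the series (43 of the 59 are from cultures). The 6 neuron libraries were 2 of SOD1_G93A mutant neurons grown with mutant glia, 1 of mutant neurons with wild-type glia, 2 of wild-type neurons with mutant glia and 1 of wild-type neurons with wild-type glia. The 7 glia libraries were 2 of mutant glia grown with mutant neurons, 2 of mutant glia with wild-type neurons, 1 of wild-type glia with mutant neurons and 2 of wild-type glia with wild-type neurons. SOD1_G93A is a mutant form of superoxide dismutase 1 that is used in mice to model amyotrophic lateral sclerosis (ALS). The labels number the libraries as replicate 1 (4 neuron, 3 glia) or replicate 2 (2 neuron, 4 glia), and both replicate 2 neuron libraries came from cultures with mutant glia. How the neurons and glia were obtained, and whether libraries of a group are separate cultures, the sources used here do not give, so that p-values measure the spread between these samples, which may be technical. Nor do they say whether neuron and glia libraries of the same pairing and number shared a culture, and the main model does not pair them.

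Motor neurons are cholinergic cells with long axons filled with neurofilaments, and they release acetylcholine from synaptic vesicles. Astrocytes take up glutamate and potassium, buffer metals and oxidants, and secrete lipoproteins, matrix and trophic factors, many of which act on receptors that neurons carry. Cultured glia from the nervous system commonly also hold microglia, fibroblasts and other cells, so both kinds of library were read for markers of each.

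The libraries held 7.49 M to 29.3 M reads on genes for neurons (median 8.85 M) and 8.01 M to 18.6 M for glia (median 11.7 M). Depth went with the replicate number, at 7.49 M to 9.58 M in replicate 1 and 11.7 M to 29.3 M in replicate 2. The part of depth in differences between the replicates was not tested. Values are RPKM (reads per kilobase of gene, scaled to library depth) after rescaling between libraries by median-of-ratios factors, which were 1.19 to 1.78 in replicate 1 and 0.646 to 0.741 in replicate 2. On log2(RPKM + 1), libraries correlated at 0.937 to 0.993 within neurons, 0.955 to 0.995 within glia and 0.588 to 0.721 between the cells. Among the neuron libraries the 2 of replicate 2 stood apart from the 4 of replicate 1. The replicate number was therefore kept as a block in the model. Values within each replicate are given beside some of the lists whose medians or calls moved between the replicates, not beside all of them.

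Neuron and glia libraries differed at most genes. Of 15334 genes tested, 12290 (80.1%) passed an adjusted p under 0.05 in limma, 6250 higher and 6040 lower in neurons. Gene lists are therefore counted with a stricter limma test, which asks whether a difference exceeds 2-fold. It called 1828 genes higher in neurons (11.9% of those tested) and 2612 lower (17.0%), and the median log2 difference over all genes tested was 0.03. Of the calls 41.2% were thus higher in neurons, against 52.8% with values rescaled to a common sum, where the median over all genes was 0.28. In bulk RNA, fewer cells of a type and less RNA per cell cannot be told apart, which holds for every list given here. Each list count is also to be read against the 11.9% higher and 17.0% lower over all genes. All 4440 genes called had the same sign within replicate 1 and within replicate 2, and 3819 of them were also called from the replicate 1 libraries alone. These libraries are among those that made the calls, so such agreement is largely built in and is not an independent test. Differences are log2(RPKM + 1) in neurons minus that in glia, with the standard error, a scale that understates the change of genes near 0. Levels are given as the lowest, median and highest library of each cell.

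**Figure D1:**
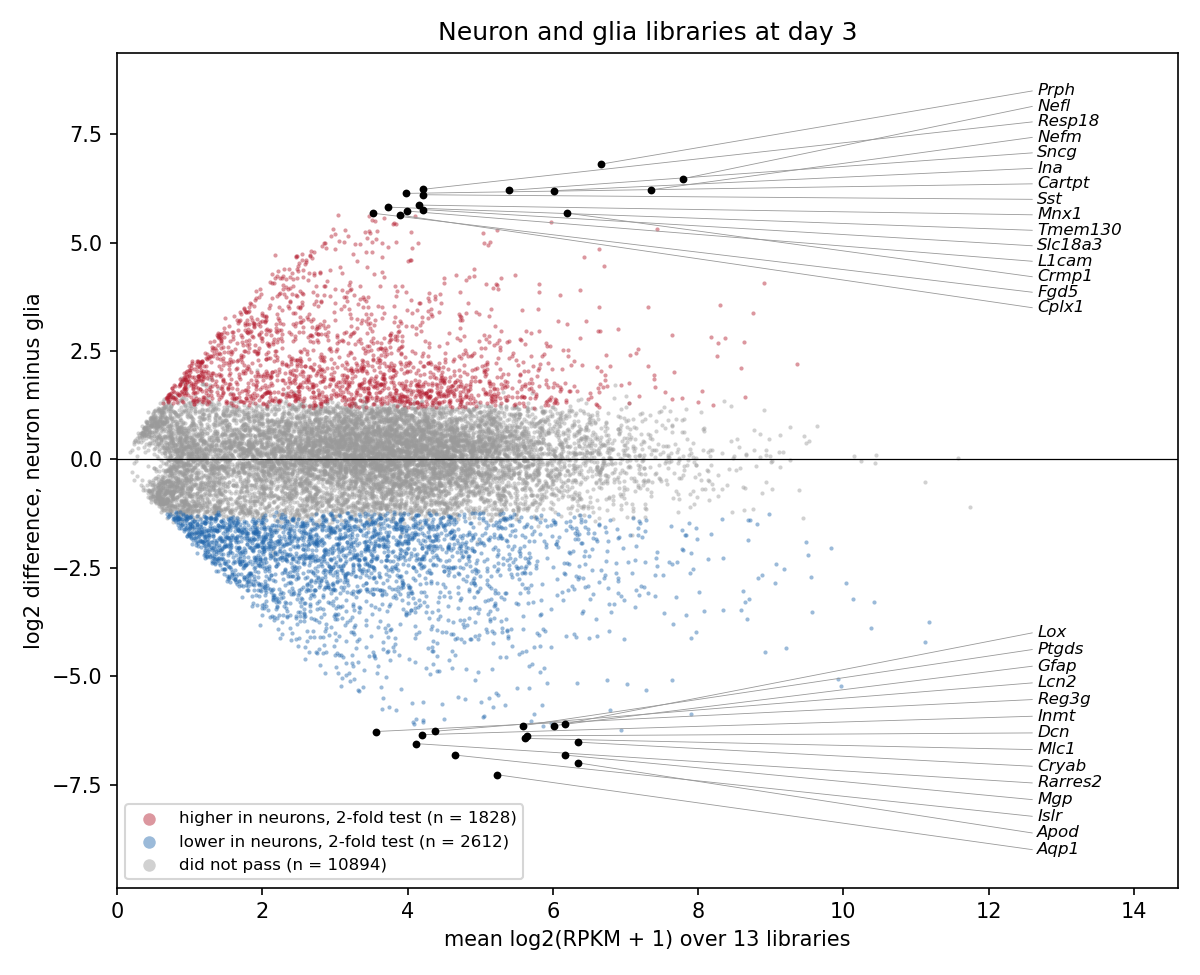
Difference between neuron and glia libraries at day 3 against mean level, for the 15334 genes tested. The x axis is the mean of log2(RPKM + 1) over the 13 libraries and the y axis the log2 difference, neuron minus glia; coloured points passed the 2-fold test (1828 higher and 2612 lower in neurons), and black points are named genes among those of the largest differences on each side.

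The largest difference in favour of neurons was that of Prph, which encodes peripherin, an intermediate filament of motor and other peripheral axons, at 1083, 1188 and 1571 RPKM in neuron libraries, against 5.09, 11.3 and 21.2 RPKM in glia libraries (log2 difference 6.81 ± 0.24). Every neuron library lay far above every glia library. The 14 that followed it were the neurofilament genes Nefl (6.48 ± 0.30) and Nefm (6.22 ± 0.54), the internexin gene Ina (6.20 ± 0.16), the secretory granule gene Resp18 (6.23 ± 0.19), the synuclein gene Sncg (6.21 ± 0.26), the neuropeptide genes Cartpt (6.14 ± 0.16) and Sst (6.11 ± 0.27), the motor neuron transcription factor gene Mnx1 (5.87 ± 0.23), the vesicular acetylcholine transporter gene Slc18a3 (5.76 ± 0.22), the adhesion gene L1cam (5.73 ± 0.14), the axon guidance gene Crmp1 (5.68 ± 0.13), the complexin gene Cplx1 (5.64 ± 0.16), Tmem130 (5.82 ± 0.16) and Fgd5 (5.68 ± 0.18). Nefm was the most uneven of them among neuron libraries, at 697, 1650.2 and 5716 RPKM in neuron libraries and 7.55, 16.5 and 64.2 RPKM in glia libraries. The 15 were taken from genes whose neuron and glia libraries do not overlap. Of the 15334 genes tested, 4054 stood so with neurons higher and 4477 with neurons lower.

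The largest difference in favour of glia was that of the water channel gene Aqp1, at 0.646, 1.03 and 7.18 RPKM in neuron libraries, against 247, 358 and 493 RPKM in glia libraries (log2 difference -7.27 ± 0.29). Next came the lipocalin gene Apod (-7.00 ± 0.34), Islr (-6.82 ± 0.21), the calcification inhibitor gene Mgp (-6.82 ± 0.42), the chemerin gene Rarres2 (-6.55 ± 0.31), the small heat shock protein gene Cryab (-6.52 ± 0.31) and the astrocyte membrane protein gene Mlc1 (-6.43 ± 0.22). They were followed by the fibroblast proteoglycan gene Dcn (-6.38 ± 0.23), Inmt (-6.35 ± 0.23), Reg3g (-6.28 ± 0.32), the reactive astrocyte gene Lcn2 (-6.27 ± 0.21), the astrocyte filament gene Gfap (-6.14 ± 0.38), the prostaglandin D synthase gene Ptgds (-6.14 ± 0.28) and the collagen cross-linking enzyme gene Lox (-6.10 ± 0.22). These genes thus mix astrocyte genes with genes of fibroblasts and matrix. Differences of single genes varied between the replicates, Gfap being at -5.32 within replicate 1 and -7.19 within replicate 2, and Cryab at -5.90 and -7.32.

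The neuron libraries carried the general neuronal programme. Of 20 pan-neuronal genes tested, 18 were higher in neurons and 1 was lower, with a median log2 difference of 4.28. Tubb3, the neuronal beta-tubulin gene, was at 1027, 1181 and 1504 RPKM in neuron libraries, against 17.5, 31.8 and 46.1 RPKM in glia libraries (5.32 ± 0.17). Snap25, a SNARE gene of synaptic release, was at 69.9, 115 and 130.1 RPKM in neuron libraries, against 0.781, 0.898 and 2.07 RPKM in glia libraries (5.58 ± 0.19). The growth cone gene Gap43 was among the most abundant, with a mean of 2347 ± 614 RPKM in neuron libraries and 128 ± 26.7 RPKM in glia libraries (SD, n = 6 and 7). The sum of the 20 genes was 8651 to 15474 RPKM in neuron libraries and 557 to 792 RPKM in glia libraries. The exceptions were Eno2, which missed the 2-fold test at a difference of 1.54 ± 0.25 (and passed it at 1.68 without the replicate 2 library of mutant neurons with mutant glia and at 1.68 without the replicate 1 library of mutant glia with mutant neurons), and Thy1, which was lower in neurons. Thy1, a surface glycoprotein gene of neurons and also of fibroblasts, was at 3.79, 10.3 and 16.8 RPKM in neuron libraries, against 134, 144 and 156 RPKM in glia libraries (-4.08 ± 0.20), with no overlap.

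Motor neuron genes were high in the same libraries. Of 20 tested, 15 were higher in neurons and 1 was lower, with a median log2 difference of 3.44. Mnx1 was at 112, 155 and 251 RPKM in neuron libraries, against 0.631, 1.79 and 2.68 RPKM in glia libraries. Chat, which makes acetylcholine, was at 16.7, 25.3 and 32.3 RPKM in neuron libraries, against 0.0605, 0.221 and 0.313 RPKM in glia libraries (4.40 ± 0.15). Slc18a3, which loads acetylcholine into vesicles, was at 115, 157 and 221 RPKM in neuron libraries, against 0.703, 2.12 and 3.33 RPKM in glia libraries. All 3 are far above the glia libraries in each of the 6 neuron libraries. The LIM homeobox gene Isl1 (5.31 ± 0.21) and the choline transporter gene Slc5a7 (4.66 ± 0.20) were higher too, as was Lhx3, a gene of the medial motor column, which reached no more than 4.25 RPKM in any neuron library (1.95 ± 0.15). Foxp1 and Chodl, marks of motor neuron subtypes, missed the 2-fold test at differences of 1.12 ± 0.14 and 0.85 ± 0.12. Aldh1a2, a retinoic acid synthesis gene of limb motor neurons and of meninges, was the 1 lower gene, at 0.345, 0.464 and 1.56 RPKM in neuron libraries and 57.9, 68.2 and 95.7 RPKM in glia libraries (-5.50 ± 0.14).

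**Figure D2:**
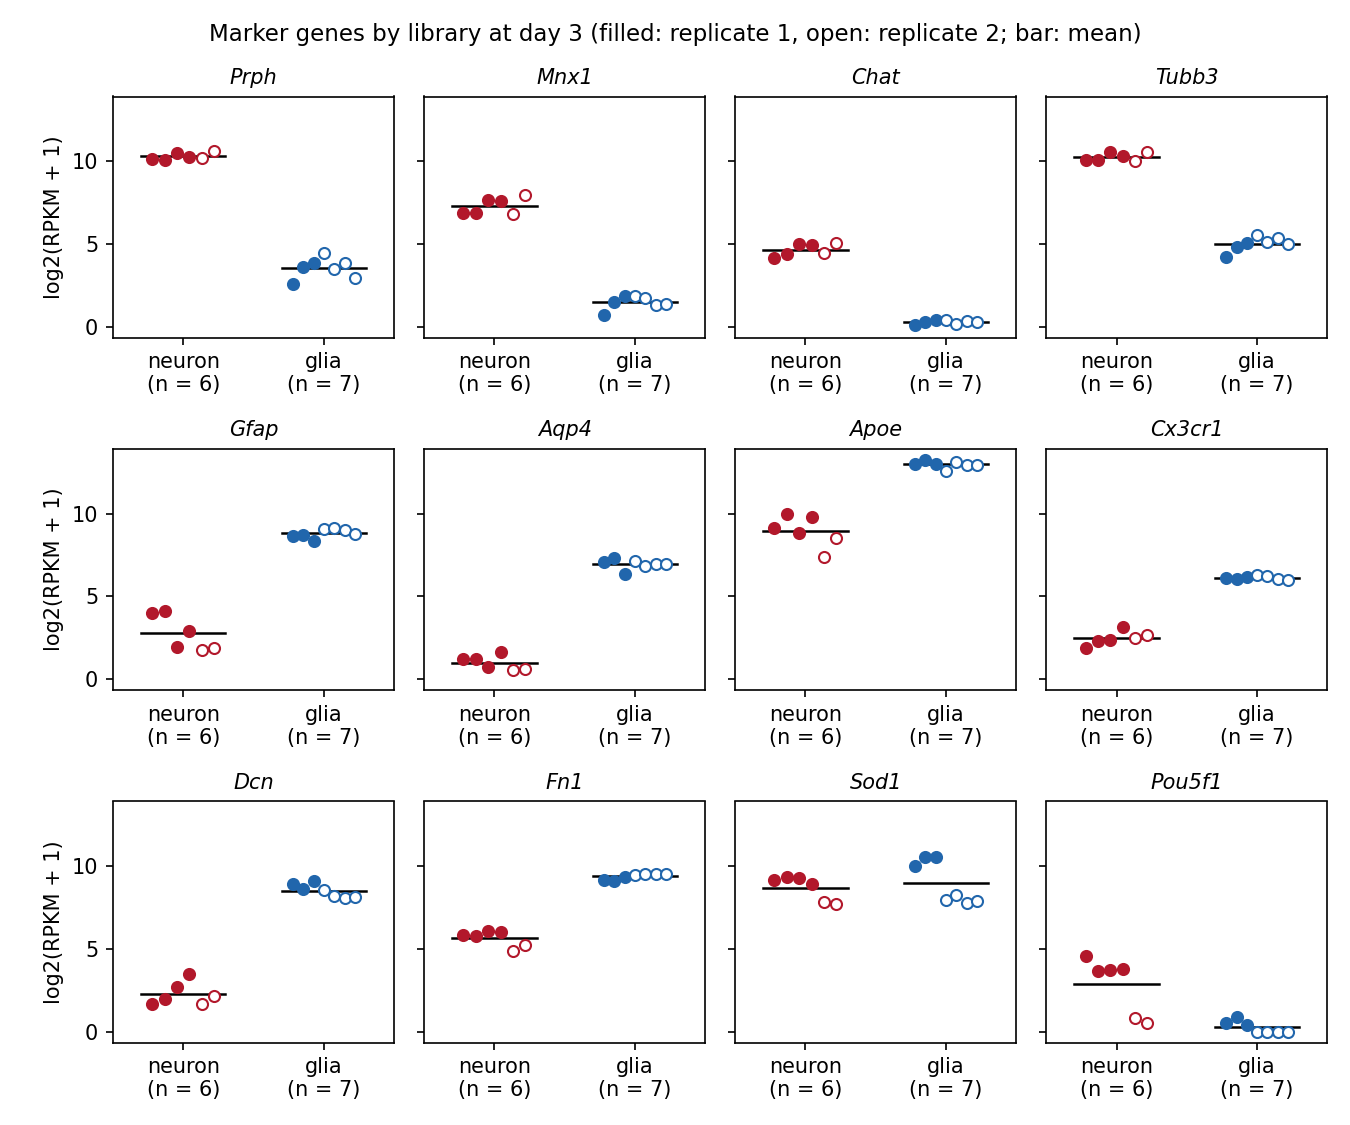
Levels of 12 marker genes in each of the 13 day 3 libraries, on a log2(RPKM + 1) axis. In each panel the 6 neuron libraries stand left of the 7 glia libraries, filled points are replicate 1 and open points replicate 2, and bars are means. Prph, Mnx1, Chat and Tubb3 are higher in every neuron library. Gfap, Aqp4, Apoe, Cx3cr1, Dcn and Fn1 are lower in every one, and Sod1 and Pou5f1 overlap.

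Genes of other neuron classes were in part also higher in neurons. Among 14 transcription factor genes of spinal interneurons that could be tested, 7 were higher in neurons and 1 (Lhx2, -3.72 ± 0.14) was lower, and among 9 genes of transmitters other than acetylcholine 5 were higher and 1 (Hdc, -1.68 ± 0.11) was lower. Pax2, a mark of inhibitory interneurons, was at 4.93, 13.6 and 23.5 RPKM in neuron libraries, against 0.206, 0.711 and 1.44 RPKM in glia libraries (2.97 ± 0.35). Slc32a1, which loads GABA and glycine into vesicles, was at 2.77, 13.7 and 24.6 RPKM in neuron libraries, against 0, 0.143 and 0.374 RPKM in glia libraries (3.36 ± 0.41). Both spread widely among the neuron libraries without reaching the glia ones. Slc17a6, a vesicular glutamate transporter gene, was higher in neurons but low, at 1.61, 2.85 and 3.61 RPKM in neuron libraries and 0, 0.0246 and 0.0358 RPKM in glia libraries (1.85 ± 0.12). The other 8 transmitter genes, among them Th and Slc17a7, were too low to test. Of 28 Hox genes tested, 21 were higher in neurons and 0 lower, with a median log2 difference of 4.17.

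Of 27 genes of synaptic vesicles and release, 23 were higher in neurons and 0 lower (median log2 difference 2.44). Rab3c (5.16 ± 0.16), the vesicle protein gene Syp (4.87 ± 0.10) and the active zone gene Bsn (3.80 ± 0.12) followed Sncg and Cplx1. Of 20 genes of the postsynaptic side, 8 were higher and 2 lower. Slitrk1, a synapse adhesion gene, was the highest (4.01 ± 0.10), and the 2 lower ones were Rapsn, the acetylcholine receptor anchor of muscle (-1.44 ± 0.16), and Camk2a (-2.24 ± 0.14), whose partner Camk2b was higher (2.52 ± 0.10). The call of Rapsn was lost when any 1 replicate 1 library, of neurons or glia, was left out (-1.42 to -1.32 in 7 such cases). Presynaptic genes thus had the larger median, 2.44 against 0.99 for the postsynaptic list, a difference that was not tested.

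Genes of the axon cytoskeleton and of transport along it were higher in 23 of 28 cases and lower in 0 (median log2 difference 2.28). Mapt, the tau gene, was at 366, 478 and 592 RPKM in neuron libraries, against 16.1, 17.8 and 25.1 RPKM in glia libraries (4.66 ± 0.10). The stathmin genes Stmn3 (4.85 ± 0.20) and Stmn4 (4.45 ± 0.12) and the motor gene Kif5a (4.23 ± 0.11) were of like size. Tubulin genes that many cells use moved less, with Tuba1a at a difference of 2.10 ± 0.12 and Tubb2a at a difference of 1.09 ± 0.13, the second of which missed the test. Map1a, a microtubule gene of mature axons and dendrites, was at a difference of -0.25 ± 0.13.

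RNA-binding proteins and splicing regulators were higher in neurons in 12 of 20 cases and lower in 0. Elavl2 was at 42.2, 87.97 and 113 RPKM in neuron libraries, against 0.758, 0.981 and 2.22 RPKM in glia libraries (5.26 ± 0.22), and Rbfox1 (5.10 ± 0.17), Srrm4 (3.64 ± 0.11) and Nova1 (3.43 ± 0.12) were also called. Ptbp2, the neuronal polypyrimidine tract protein, was at a difference of 2.59 ± 0.11, whereas its relative Ptbp1, which represses neuronal exons in other cells, was at a difference of -1.13 ± 0.21 and missed the test. Its levels were 10.1, 30.8 and 32.6 RPKM in neuron libraries and 45.02, 47.2 and 55.4 RPKM in glia libraries, which do not overlap. Rest, the repressor that keeps neuronal genes silent outside neurons by binding RE1 sites, was at 2.44, 4.94 and 7.59 RPKM in neuron libraries and 5.47, 12.4 and 13.8 RPKM in glia libraries (-1.06 ± 0.24), which overlap. Within replicate 1 its difference was -0.40 and within replicate 2 -1.90. Of the 10 genes of the RE1-silencing complex, Rcor2 (2.69 ± 0.16), Hdac2 (1.64 ± 0.16) and Kdm1a (1.59 ± 0.07) were higher in neurons and the phosphatase gene Ctdsp1 (-2.76 ± 0.15) was lower.

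Promoter letters were read for these groups because RE1 sites, cyclic AMP response elements (CRE) and AP-1 sites are known control sequences of neuronal genes, of neuropeptide genes and of genes of activated glia. RefSeq promoters of build GRCm38.p6, which run from 250 bases before to 50 bases after the start of a gene, were matched to 1190 of the 1828 genes higher in neurons, 1842 of the 2612 lower and 10531 of the 15334 tested. The left part of an RE1 site (TTCAGCACC), the CRE (TGACGTCA) and the AP-1 site (TGAGTCA) were searched on both strands, and none of the 3 contains another. A gene was counted if any of its promoters matched. The mean number of promoters per gene was 1.408 for genes higher in neurons, 1.286 for lower ones and 1.29 over all tested. The shares are thus not over equal lengths of sequence. The RE1 part occurred in 15 of 1190 (1.26%) genes higher in neurons, in 8 of 1842 (0.434%) genes lower in neurons and in 57 of 10531 (0.541%) of all tested. The CRE occurred in 46 of 1190 (3.87%), in 23 of 1842 (1.25%) and in 367 of 10531 (3.48%), in the same order. The AP-1 site occurred in 51 of 1190 (4.29%), in 128 of 1842 (6.95%) and in 498 of 10531 (4.73%). These shares are descriptions without a test, and over all promoters of the table they were 0.433% for the RE1 part, 2.03% for the CRE and 5.95% for AP-1.

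Promoters of 6 named genes that hold such a site are shown, 5′ to 3′ on the strand of the gene, with the matching letters in capitals. Syn1 (synapsin I, chrX:20920869-20921168, minus strand) and Scg2 (secretogranin II, chr1:79439977-79440276, minus strand), both pan-neuronal, hold an RE1 part and a CRE, the RE1 part of Scg2 being on the opposite strand. The neuropeptide genes Sst (chr16:23890795-23891094, minus strand) and Cartpt (chr13:99900634-99900933, minus strand) hold a CRE. Gja1 (connexin 43, chr10:56377050-56377349, plus strand) and Ptgds (chr2:25469700-25469999, minus strand), both lower in neurons, hold an AP-1 site, on the opposite strand in Ptgds.
Syn1: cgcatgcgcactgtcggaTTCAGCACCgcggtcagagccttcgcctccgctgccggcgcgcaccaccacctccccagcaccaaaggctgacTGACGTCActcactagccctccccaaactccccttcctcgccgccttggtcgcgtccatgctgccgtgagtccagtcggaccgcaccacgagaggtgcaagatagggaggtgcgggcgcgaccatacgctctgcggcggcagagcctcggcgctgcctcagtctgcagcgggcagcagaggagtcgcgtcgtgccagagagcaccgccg
Scg2: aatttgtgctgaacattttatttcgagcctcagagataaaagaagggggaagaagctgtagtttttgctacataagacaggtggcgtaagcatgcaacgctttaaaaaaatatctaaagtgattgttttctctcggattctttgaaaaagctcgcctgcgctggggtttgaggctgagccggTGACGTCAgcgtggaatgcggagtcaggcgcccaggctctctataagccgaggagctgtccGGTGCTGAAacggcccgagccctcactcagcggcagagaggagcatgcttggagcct
Sst: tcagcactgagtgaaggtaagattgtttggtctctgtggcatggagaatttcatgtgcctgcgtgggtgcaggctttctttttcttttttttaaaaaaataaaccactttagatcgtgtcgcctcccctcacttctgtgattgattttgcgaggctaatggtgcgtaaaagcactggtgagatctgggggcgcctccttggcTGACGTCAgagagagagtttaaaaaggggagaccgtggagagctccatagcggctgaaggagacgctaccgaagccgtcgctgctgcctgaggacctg
Cartpt: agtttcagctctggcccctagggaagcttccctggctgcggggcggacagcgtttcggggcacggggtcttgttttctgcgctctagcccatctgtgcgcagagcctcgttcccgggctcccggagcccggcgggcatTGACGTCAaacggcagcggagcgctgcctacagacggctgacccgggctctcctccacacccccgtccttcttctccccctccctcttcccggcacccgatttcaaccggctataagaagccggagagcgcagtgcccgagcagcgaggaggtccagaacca
Gja1: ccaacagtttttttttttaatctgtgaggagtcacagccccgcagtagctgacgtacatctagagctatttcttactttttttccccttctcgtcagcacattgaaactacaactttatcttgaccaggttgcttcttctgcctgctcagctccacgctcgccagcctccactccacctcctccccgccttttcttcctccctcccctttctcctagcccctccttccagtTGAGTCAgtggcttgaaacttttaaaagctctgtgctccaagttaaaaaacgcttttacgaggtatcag
Ptgds: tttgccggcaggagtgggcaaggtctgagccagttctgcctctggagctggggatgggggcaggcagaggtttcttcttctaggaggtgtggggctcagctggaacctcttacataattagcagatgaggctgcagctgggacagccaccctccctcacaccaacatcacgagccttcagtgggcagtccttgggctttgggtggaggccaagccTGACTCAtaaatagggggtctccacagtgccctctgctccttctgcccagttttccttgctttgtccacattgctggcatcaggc
Beside these sequences, Syn1 was at 60.5, 81.03 and 116 RPKM in neuron libraries and 3.36, 6.11 and 7.57 RPKM in glia libraries (3.76 ± 0.14), and Sst at 97.2, 185 and 309 RPKM in neuron libraries and 0.501, 1.26 and 3.41 RPKM in glia libraries. Gja1 was at 2.88, 13.96 and 15.3 RPKM in neuron libraries and 210.0, 257 and 316 RPKM in glia libraries (-4.91 ± 0.25). A match shows that the letters are in the window, not that a factor binds there.

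Astrocyte genes stood on the glial side. Of 23 tested, 20 were lower in neurons and 0 higher (median log2 difference -3.39), and their sum was 853 to 2589.6 RPKM in neuron libraries and 11426 to 14688 RPKM in glia libraries. Within replicate 1 alone 16 of the 23 were lower, and within replicate 2 alone 21. Gfap was at 2.36, 4.67 and 16.6 RPKM in neuron libraries, against 321, 431 and 556 RPKM in glia libraries. Aqp4, the water channel of astrocyte endfeet, was at 0.474, 0.994 and 2.08 RPKM in neuron libraries, against 82.6, 125 and 159 RPKM in glia libraries (-6.02 ± 0.18). Apoe, the main apolipoprotein of the brain, was the most abundant, at 168, 514 and 1031 RPKM in neuron libraries, against 6085, 8308 and 9773 RPKM in glia libraries (-4.21 ± 0.28). The glutamate transporter genes Slc1a2 (-2.80 ± 0.17) and Slc1a3 (-3.39 ± 0.33) and the potassium channel gene Kcnj10 (-5.59 ± 0.20) were also lower in neurons. The 3 that missed the test were Fabp7, Id4 and Nfia, all of which neural progenitors also express, and Nfia passed it at -1.50 without the replicate 1 library of mutant glia with mutant neurons. Fabp7 was at 140.5, 481 and 748 RPKM in neuron libraries and 281, 407 and 474 RPKM in glia libraries (-0.20 ± 0.23).

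The glia libraries also carried genes of reactive astrocytes. Of 24 tested, 21 were lower in neurons and 0 higher (median -2.66). C3, the complement component used as a mark of inflammatory astrocytes, was at 1.53, 2.83 and 3.55 RPKM in neuron libraries, against 147, 152 and 212 RPKM in glia libraries (-5.52 ± 0.15). Vim (-3.29 ± 0.20), Serpina3n (-4.15 ± 0.16) and the ceruloplasmin gene Cp (-4.53 ± 0.14) were also lower. Factors by which astrocytes act on synapses were lower in neurons in 10 of 12 cases, with Sparcl1 (hevin) at a difference of -4.03 ± 0.26 and Thbs2 at a difference of -4.62 ± 0.23, and the phagocytic receptor gene Megf10 was at a difference of 0.61 ± 0.08.

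Microglia and macrophage genes were lower in neurons in 20 of 21 cases and higher in 0 (median -2.96). Their sum was 571 to 1322 RPKM in neuron libraries and 5631 to 8254 RPKM in glia libraries. Cx3cr1, the fractalkine receptor gene of microglia, was at 2.76, 4.49 and 7.90 RPKM in neuron libraries, against 62.4, 67.5 and 79.3 RPKM in glia libraries (-3.61 ± 0.16), and Tmem119 was at a difference of -4.51 ± 0.14. The ligand gene of Cx3cr1, Cx3cl1, was lower in neurons as well (-2.31 ± 0.21). The complement genes C1qa, C1qb and C1qc had differences of -3.46, -3.58 and -3.49.

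Immune pathways pointed the same way but in part. Cytokine and chemokine genes were lower in neurons in 10 of 18 cases, antigen presentation genes in 6 of 9, complement genes in 7 of 11 and interferon response genes in 8 of 19, with 0 higher in each. Within replicate 1 alone 5 of 19 interferon response genes were lower, and within replicate 2 alone 9 of 18. Ccl5 (-3.52 ± 0.28), Il33 (-3.41 ± 0.21) and the beta-2-microglobulin gene B2m (-2.62 ± 0.25) were among the called. The interferon list was split. Ifit3 (-3.09 ± 0.26), Ifi27 (-3.06 ± 0.12) and Bst2 (-2.70 ± 0.24) passed the test, whereas Oasl2 (0.11 ± 0.29) and Usp18 (0.21 ± 0.33) did not. Tnf was at 0.250 to 1.19 RPKM in neuron libraries and 1.32 to 4.33 RPKM in glia libraries.

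Genes of fibroblasts and meninges were lower in neurons in 16 of 17 cases (median -4.15), the largest median of the cell type lists on the glial side. Their sum was 146 to 1143 RPKM in neuron libraries and 2749 to 3896 RPKM in glia libraries. Dcn was at 2.22, 3.19 and 10.2 RPKM in neuron libraries, against 272, 370.3 and 548 RPKM in glia libraries, and Col1a2 at a difference of -5.39 ± 0.23. Crabp2, a retinoic acid binding protein gene, was at 94.1, 239.6 and 478 RPKM in neuron libraries and 29.4, 58.5 and 116 RPKM in glia libraries (1.72 ± 0.30), which overlap; it passed the test without any 1 of 3 neuron libraries, those of mutant neurons in either pairing (1.84 to 1.93 in 3 such cases). Genes of the extracellular matrix and its remodelling were lower in neurons in 29 of 30 cases (median -3.67), among them the fibronectin gene Fn1, at 27.9, 55.2 and 66.9 RPKM in neuron libraries, against 554, 721 and 752 RPKM in glia libraries (-3.80 ± 0.18). Sparc (-4.35 ± 0.39), Bgn (-5.28 ± 0.35) and Loxl1 (-4.72 ± 0.28) were called too, and the 1 that missed the test was Lamc1 (-1.30 ± 0.30). Of the 30 matrix genes, 26 were lower within replicate 1 alone (median -3.16) and 29 within replicate 2 alone (median -4.24). Of 32 collagen chain genes tested, 23 were lower in neurons and 0 higher.

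Actin, contractile and adhesion genes were lower in neurons in 23 of 31 cases and higher in 0, with a median of -1.97 within replicate 1 and -3.19 within replicate 2. S100a4 (-6.07 ± 0.30), S100a6 (-5.87 ± 0.29), Cavin1 (-4.71 ± 0.30) and the integrin gene Itgb1 (-2.15 ± 0.11) were lower, and the beta-actin gene Actb was at a difference of -0.08 ± 0.19. The transcriptional coactivator genes Yap1 (-2.28 ± 0.22) and Wwtr1 (-3.40 ± 0.26) and their targets Ccn1 (-2.67 ± 0.21) and Ccn2 (-2.83 ± 0.21) were 4 of the 8 lower in neurons among 17 genes of that pathway and of serum response, whose median was -0.65 within replicate 1 and -1.61 within replicate 2. Jun was at 165, 205 and 305 RPKM in neuron libraries and 72.5, 89.7 and 115 RPKM in glia libraries (1.30 ± 0.14) and missed the 2-fold test, which it passed without either library of mutant neurons with mutant glia (1.35 to 1.39 in 2 such cases).

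Smaller cell types could also be read. Oligodendrocyte genes were lower in neurons in 12 of 16 cases, with Mbp at 8.65, 10.6 and 22.1 RPKM in neuron libraries, against 53.2, 80.1 and 102 RPKM in glia libraries (-2.50 ± 0.22), and the precursor gene Pdgfra at a difference of -4.19 ± 0.17. Genes of ependymal cells and motile cilia were lower in 9 of 10 cases, led by Foxj1, at 3.30, 6.80 and 12.7 RPKM in neuron libraries, against 80.96, 88.7 and 122 RPKM in glia libraries (-3.74 ± 0.19). Of 8 mural cell genes 4 were lower in neurons, with the smooth muscle actin gene Acta2 at a difference of -3.07 ± 0.48. The median of the mural list was -1.61 over the 7 genes that could be tested within replicate 1 and -4.82 over the 5 within replicate 2. Of 8 endothelial genes 3 were lower, with the cadherin gene Cdh5 at a difference of -5.01 ± 0.14 but Pecam1 at a difference of -0.01 ± 0.19. Of 8 Schwann cell genes 3 were lower (Egr2, Cdh19 and Pmp22) and 2 higher (Pou3f1 at a difference of 4.74 ± 0.13 and Foxd3 at a difference of 1.63 ± 0.19), both of which neural precursors also use. The 6 muscle genes tested gave no call, and no haemoglobin gene reached the level to be tested.

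**Figure D3:**
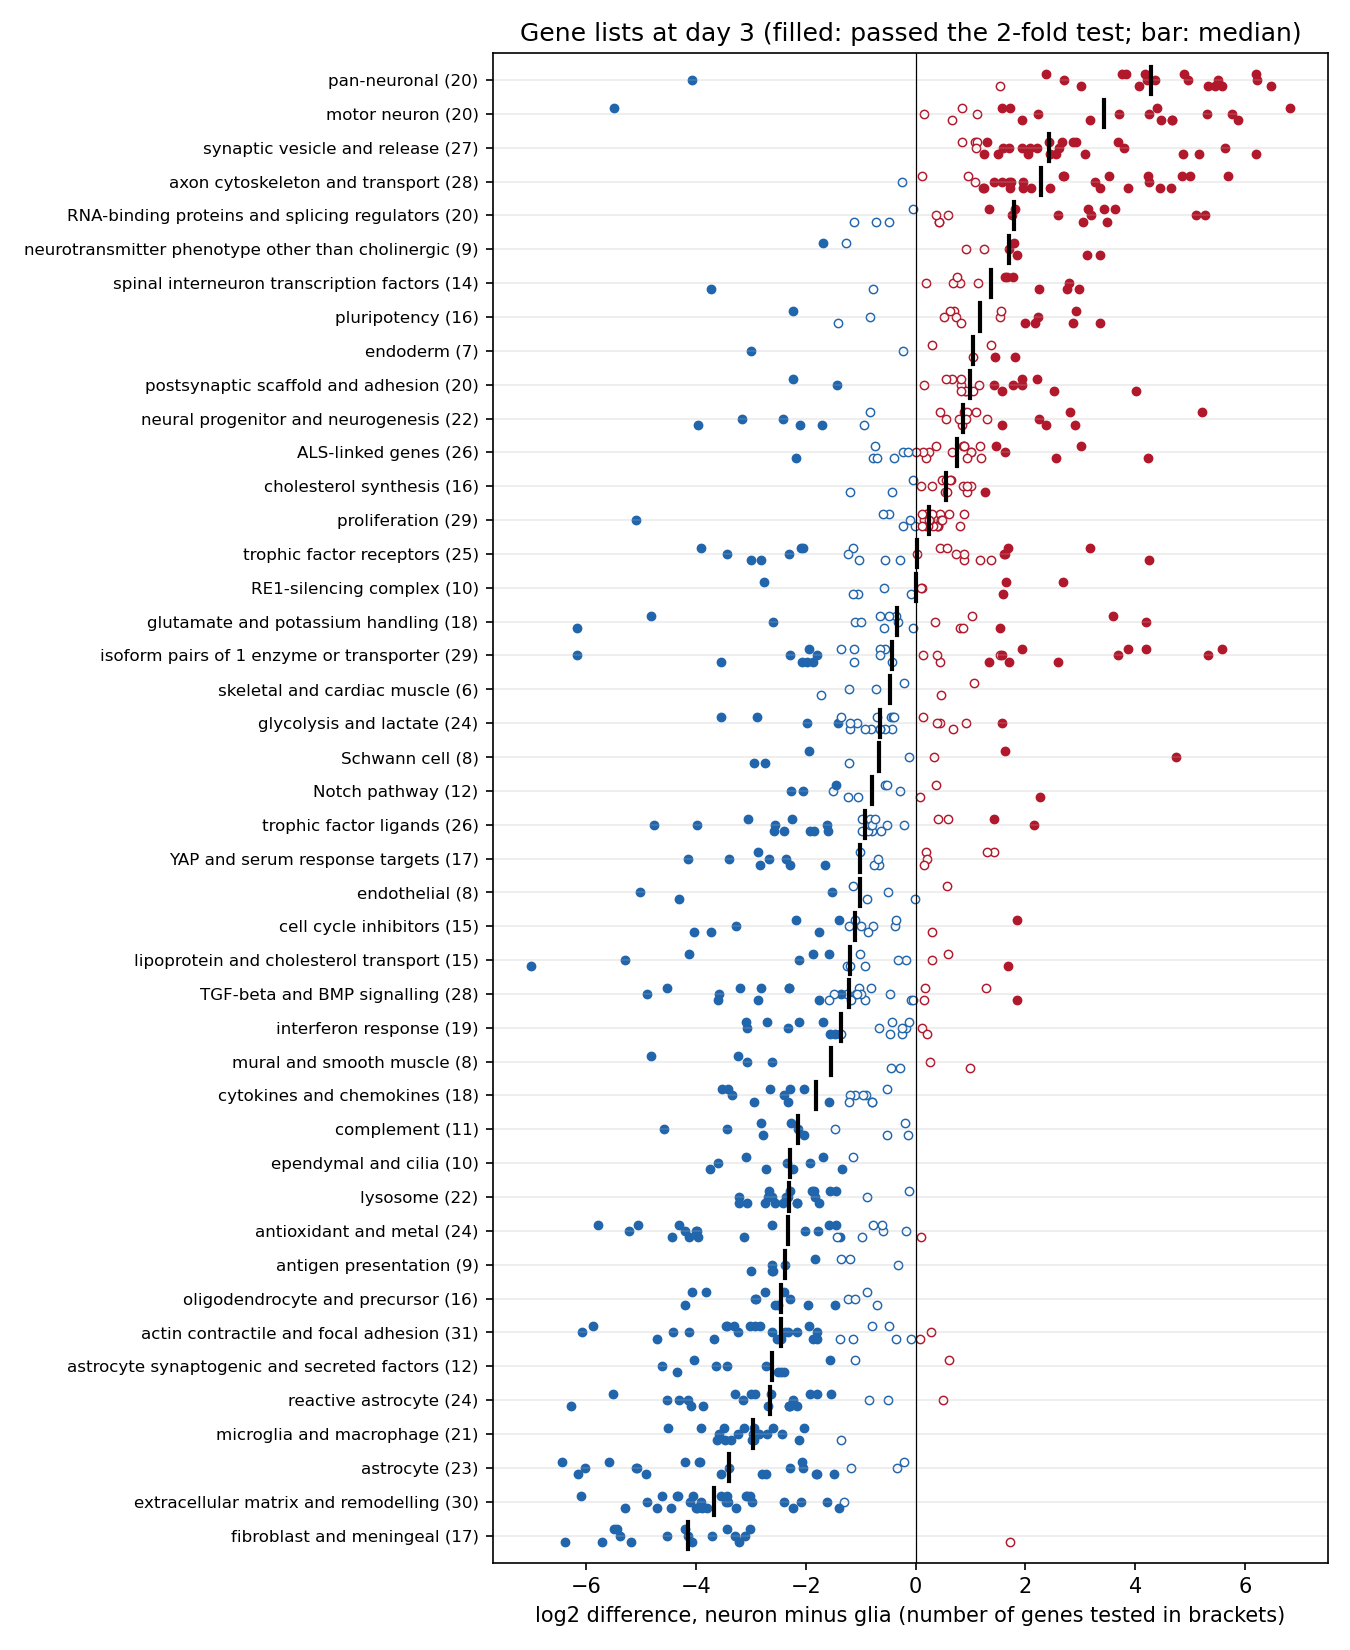
Log2 differences, neuron minus glia, of the tested members of 44 gene lists, with 1 row a list and the lists ordered by their median (black bar) from the most positive at the top. Filled points passed the 2-fold test; the median runs from 4.28 for pan-neuronal genes to -4.15 for fibroblast and meningeal genes.

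Trophic factors act between cells, and their genes were read as ligands and receptors. Trophic factor ligand genes were lower in neurons in 11 of 26 cases and higher in 2, the neuregulin gene Nrg1 (2.16 ± 0.16) and Fgf9 (1.43 ± 0.12). Cntf, the ciliary neurotrophic factor, was at 0.828, 1.16 and 1.43 RPKM in neuron libraries, against 34.6, 50.1 and 125 RPKM in glia libraries (-4.76 ± 0.20). It was thus carried by the glia libraries, as were Ctf1 (-3.05 ± 0.12), Clcf1 (-2.58 ± 0.25) and Gdnf, the last at only 0.130, 0.211 and 0.426 RPKM in neuron libraries and 1.73, 2.61 and 4.34 RPKM in glia libraries (-1.60 ± 0.15). Bdnf was at a difference of -0.97 ± 0.14 and missed the 2-fold test.

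The receptor genes split. Of 25 tested, 5 were higher and 7 lower in neurons, against 11.9% higher and 17.0% lower over all genes. Ret, the signalling receptor for GDNF, was at 83.1, 122 and 164 RPKM in neuron libraries, against 2.66, 6.20 and 8.24 RPKM in glia libraries (4.25 ± 0.21), and its partners Gfra1 and Gfra2 were at differences of 1.63 ± 0.11 and 1.68 ± 0.20. Of the receptor for CNTF, the subunit genes Lifr (3.18 ± 0.20) and Cntfr (1.62 ± 0.12) were higher in neurons, while the shared subunit Il6st was at a difference of -1.03 ± 0.07 and missed the test. For GDNF and for CNTF the ligand gene was thus lower and 2 or more receptor genes were higher in the neuron libraries. Ntrk2, the BDNF receptor gene, went the other way, at 8.25, 10.03 and 12.99 RPKM in neuron libraries, against 144, 163 and 194 RPKM in glia libraries (-3.90 ± 0.12). Fgfr1 (-2.04 ± 0.15), Fgfr2 (-2.82 ± 0.23) and Pdgfrb (-3.43 ± 0.21) were lower in neurons. The neuregulin receptor gene Erbb3 was at 0.668, 1.87 and 3.36 RPKM in neuron libraries and 0.472, 1.34 and 1.64 RPKM in glia libraries, which overlap.

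**Figure D4:**
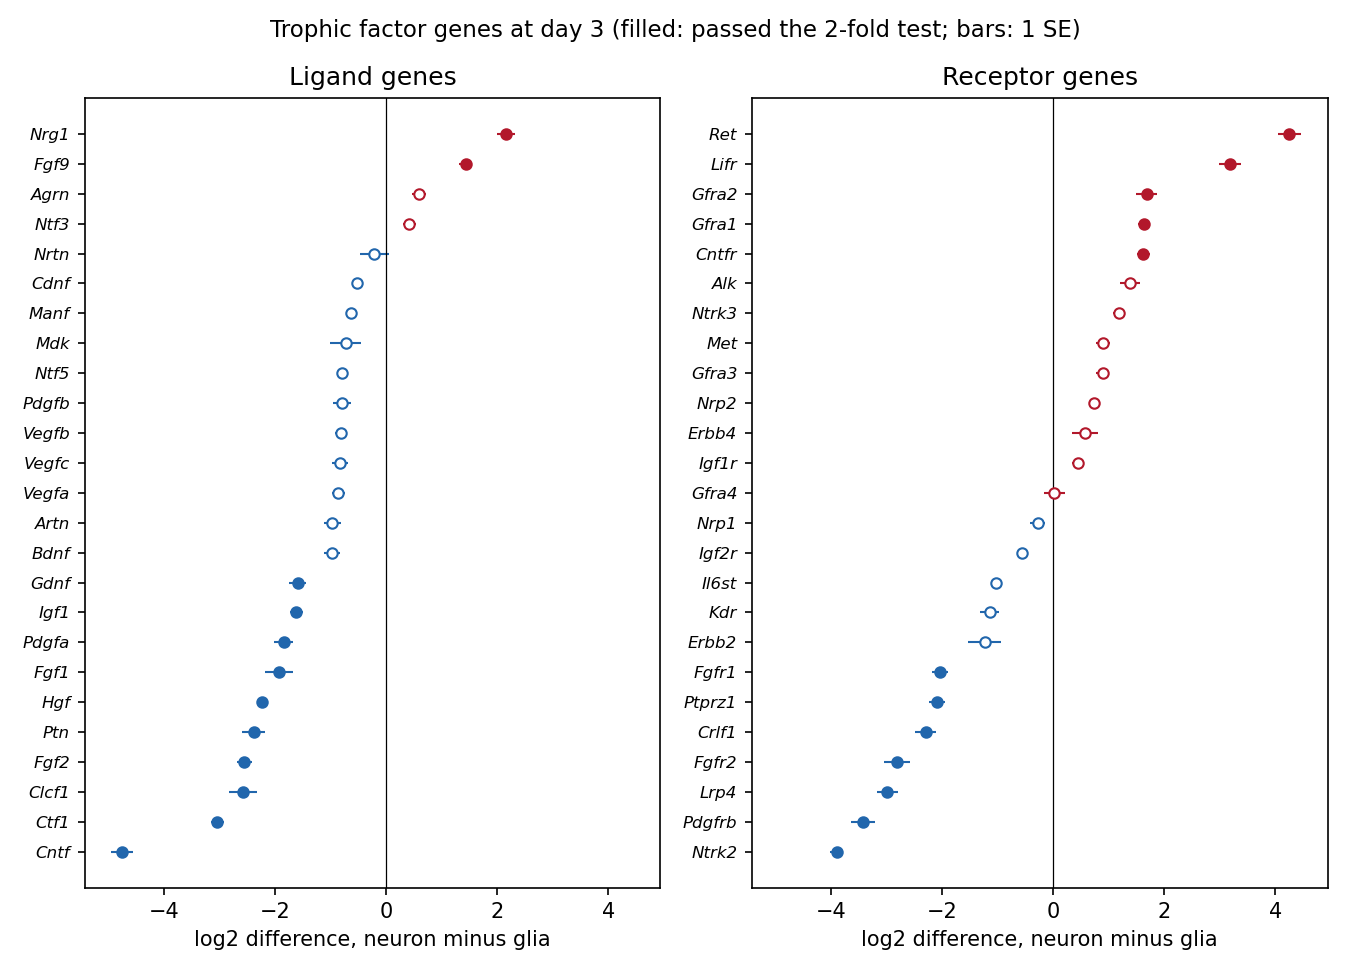
Log2 differences, neuron minus glia, of trophic factor ligand genes (left) and receptor genes (right) at day 3, with bars of 1 standard error. Filled points passed the 2-fold test, with Nrg1 and Fgf9 as the higher ligands, and 5 receptors higher and 7 lower in neurons; Cntf is the lowest ligand and Ret the highest receptor.

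In the TGF-beta and BMP list, 11 of 28 genes were lower in neurons and 1 was higher. The share over all genes, for this list and for the Notch pathway below, is 17.0% lower and 11.9% higher. The ligand genes Tgfb1 (-2.87 ± 0.16), Tgfb3 (-3.19 ± 0.23), Bmp6 (-4.88 ± 0.24) and Bmp7 (-2.30 ± 0.25) were lower. The receptor genes went apart, with Tgfbr1 at 23.4, 37.6 and 71.8 RPKM in neuron libraries, against 9.88, 10.9 and 15.03 RPKM in glia libraries (1.84 ± 0.17), and Tgfbr2 at 1.83, 3.22 and 4.58 RPKM in neuron libraries, against 40.4, 50.7 and 57.1 RPKM in glia libraries (-3.59 ± 0.15). Both subunits are needed for a complete receptor. In the Notch pathway the ligand gene Jag2 was higher in neurons (2.26 ± 0.12), the receptor gene Notch2 (-2.06 ± 0.23), the glycosyltransferase gene Lfng (-2.26 ± 0.23) and the target gene Hey1 (-1.44 ± 0.09) were lower, and the other 8 of 12 missed the test. Within replicate 1 alone 1 of the 12 was lower, and within replicate 2 alone 5 were.

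Housekeeping systems also differed. Lysosomal genes were lower in neurons in 20 of 22 cases (median -2.31). Ctsd, a cathepsin gene, was at 231, 352 and 459.7 RPKM in neuron libraries, against 2692, 3089.8 and 3909 RPKM in glia libraries (-3.22 ± 0.14), and Grn, the progranulin gene, at a difference of -2.67 ± 0.12. Genes of antioxidant defence and metal binding were lower in 17 of 24 cases (median -2.32). The metallothionein genes Mt1 (-5.06 ± 0.32), Mt2 (-4.43 ± 0.39) and Mt3 (-5.23 ± 0.34), the glutathione transferase gene Gstm1 (-5.78 ± 0.18) and the regulator gene Nfe2l2 (NRF2, -4.12 ± 0.17) were among them. Nfe2l2 was at 2.32, 5.50 and 7.85 RPKM in neuron libraries, against 82.03, 88.8 and 108 RPKM in glia libraries, which stand well apart. Lysosomal genes are also high in microglia, whose marker sum is given above, and the part of those cells in this difference was not tested.

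Sod1 itself was at 207, 530.2 and 641 RPKM in neuron libraries and 220.0, 301 and 1536 RPKM in glia libraries, a log2 difference of -0.77 ± 0.18 that passed the plain test (adjusted p = 0.00137, limma) but not the 2-fold test. The 2 cells overlapped, and the difference was -1.21 within replicate 1 and -0.19 within replicate 2. The replicate 1 libraries held 486 to 641 RPKM in neurons and 1039 to 1536 RPKM in glia, and the replicate 2 libraries 207 to 231 RPKM in neurons and 220.0 to 301 RPKM in glia. The sources used here do not say whether human SOD1 reads were counted in this entry.

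Of 26 genes linked to ALS in people that could be tested, 5 were higher in neurons and 1 lower. Over all genes 11.9% were higher and 17.0% lower. Kif5a (4.23 ± 0.11), Stmn2 (3.01 ± 0.18), Unc13a (2.56 ± 0.11), Matr3 (1.63 ± 0.15) and Hnrnpa1 (1.47 ± 0.09) were higher, and Tuba4a (-2.17 ± 0.16) was lower. The call of Matr3 was lost without the replicate block (1.49) and within replicate 1 alone (1.35). Stmn2, a microtubule gene of growing axons, was at 252, 407 and 479 RPKM in neuron libraries, against 34.4, 44.00 and 63.7 RPKM in glia libraries. The RNA-binding protein gene Tardbp, at a difference of 1.01 ± 0.10, passed the plain test and not the 2-fold one. Tbk1 (-0.39 ± 0.13), Optn (0.25 ± 0.09) and C9orf72 (0.13 ± 0.11) missed the 2-fold test and overlapped between the cells.

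Several enzymes and transporters exist as a neuronal and a glial form, and the 29 genes of such families split, with 10 higher and 8 lower in neurons. The SNARE genes Snap25 and Snap23 went apart, the first higher in neurons (5.58 ± 0.19) and the second lower, at 3.07, 7.63 and 8.98 RPKM in neuron libraries and 14.9, 20.4 and 26.2 RPKM in glia libraries (-1.79 ± 0.12). So did Stx1a (3.68 ± 0.14) and Stx4a (-1.87 ± 0.09). The glucose transporter gene Slc2a3 was higher in neurons (1.57 ± 0.13), Slc2a1 was at a difference of -0.44 ± 0.25, and the lactate transporter gene Slc16a1 was lower (-3.55 ± 0.15).

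Genes of energy and lipid metabolism were read next, against 11.9% higher and 17.0% lower over all genes. In glycolysis and lactate handling 1 of 24 genes was higher and 4 were lower in neurons (median -0.65), among them Ldhb (-1.98 ± 0.13) and Gpi1 (-1.40 ± 0.14), the call of Gpi1 being lost at -1.29 without the replicate 2 library of mutant neurons with mutant glia. In cholesterol synthesis 1 of 16 was higher and 0 were lower, and that call was lost within each replicate alone. Lipoprotein genes had 1 higher, the reelin and apolipoprotein receptor gene Lrp8 (1.69 ± 0.07), and 6 lower of 15 (median -1.19), among them Lcat (-5.29 ± 0.18) and Pltp (-4.13 ± 0.19). Genes of glutamate and potassium handling had 3 higher and 3 lower of 18, with the chloride exporter gene Slc12a5 at a difference of 3.60 ± 0.14 and the glutamine transporter gene Slc38a3 at a difference of -4.81 ± 0.21.

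Cell division genes showed how far the neuron libraries differ among themselves. Of 29 proliferation genes only Ccnd1, which encodes cyclin D1, passed the test, at 10.5, 14.5 and 27.7 RPKM in neuron libraries, against 461, 524 and 636 RPKM in glia libraries (-5.10 ± 0.18). All 29 were higher in each of the 4 replicate 1 neuron libraries than in both replicate 2 ones, an order found in 25.1% of all genes tested (the opposite order in 26.2%). The median log2 difference of the list was 1.03 within replicate 1 and -0.60 within replicate 2. Without Ccnd1 the list summed to 344 to 486 RPKM in the 4 neuron libraries of replicate 1 and 133 and 144 RPKM in the 2 of replicate 2, with 208 to 289 RPKM over the 7 glia libraries. Cell cycle inhibitors had 1 of 15 higher in neurons, Cdkn1c (1.84 ± 0.13), and 6 lower, among them Cdkn2a (-3.72 ± 0.28) and Cdkn1a (-1.75 ± 0.13).

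Pluripotency genes differed in the same order among the neuron libraries. Of 16 tested, 6 were higher in neurons and 1 was lower, and all 16 were higher in each replicate 1 neuron library than in both of replicate 2. Dppa5a was at 136, 79.7, 112 and 109.7 RPKM in the replicate 1 neuron libraries and 1.11 and 1.26 RPKM in those of replicate 2, against 0 to 2.47 RPKM in glia libraries. Pou5f1, which encodes the stem cell factor OCT4, was at 22.6, 11.6, 12.3 and 12.7 RPKM in the replicate 1 neuron libraries and 0.790 and 0.463 RPKM in those of replicate 2, against 0 to 0.863 RPKM in glia libraries. For both genes the replicate 1 neuron libraries lay above every glia library, and those of replicate 2 lay within the range of the 7 glia libraries. Fewer genes pass the filter in fewer libraries. Replicate 2 alone left 5 of the genes to test and gave 2 higher and 3 lower calls, with a median of -1.66, against 9 higher and 1 lower in replicate 1 with a median of 2.16. Neural progenitor genes were mixed, with 6 higher in neurons (Sox11, 5.23 ± 0.17, the largest) and 5 lower (Olig1, -3.96 ± 0.30, the largest) of 22, and 10 of the 22 stood higher in all replicate 1 than in all replicate 2 neuron libraries. Sox2, of the lower ones, was at 8.86, 43.4 and 84.7 RPKM in neuron libraries and 113, 128 and 228 RPKM in glia libraries (-2.41 ± 0.29), a call lost without the replicate block (-2.08) and within replicate 1 alone (-1.63).

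The order of replicate 1 above replicate 2 was not limited to those lists. It held for 15 of 23 astrocyte genes, 22 of 30 genes of extracellular matrix, 7 of 8 mural cell genes, 19 of 31 actin, contractile and adhesion genes and 8 of 9 antigen presentation genes, against the 25.1% over all genes. The mural list summed to 454 to 684 RPKM in the 4 neuron libraries of replicate 1 and 39.8 and 90.2 RPKM in the 2 of replicate 2, with 1655 to 2217 RPKM over the glia libraries. The astrocyte list summed to 1516 to 2589.6 RPKM in the neuron libraries of replicate 1 and 853 and 950.4 RPKM in those of replicate 2, with 11426 to 14688 RPKM over the glia libraries. The opposite order, replicate 2 above replicate 1, was that of 15 of 28 axon genes, 13 of 27 synaptic vesicle genes, 13 of 20 RNA-binding protein genes and 8 of 20 pan-neuronal genes, against 26.2% over all genes. Motor neuron genes, at 5 of 20, were close to that share. The part of glial, stromal or dividing cells in the neuron libraries of replicate 1 was not tested.

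The difference between the cells was read again in the 30 culture libraries of days 7 and 14, which the day 3 comparison does not use, with values rescaled over all 43 culture libraries. At day 14 it differed from day 3 in 10486 of 15571 genes (67.3%; limma, adjusted p under 0.05), being more positive in 5102 (32.8%) and more negative in 5384 (34.6%) (6483 of 10423 were positive with values as deposited), and at day 7 it differed in 6440 (41.4%). Of the 1828 genes higher in neurons at day 3, 1691 were called with a smaller difference at day 14 (limma, adjusted p under 0.05). The median log2 difference of the 1828 was 1.94 at day 3 and 0.68 at day 14. Of the 2612 lower ones, 2404 were called by the same test as moving towards 0 or past it. The medians of the 2612 were -2.04 and -0.60. The sign at day 3 was kept by 4358 of the 4440 at day 7 and by 3947 at day 14. The day 3 libraries enter both sides of these changes, and genes chosen at day 3 for a large difference tend to show a smaller one elsewhere.

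**Figure D5:**
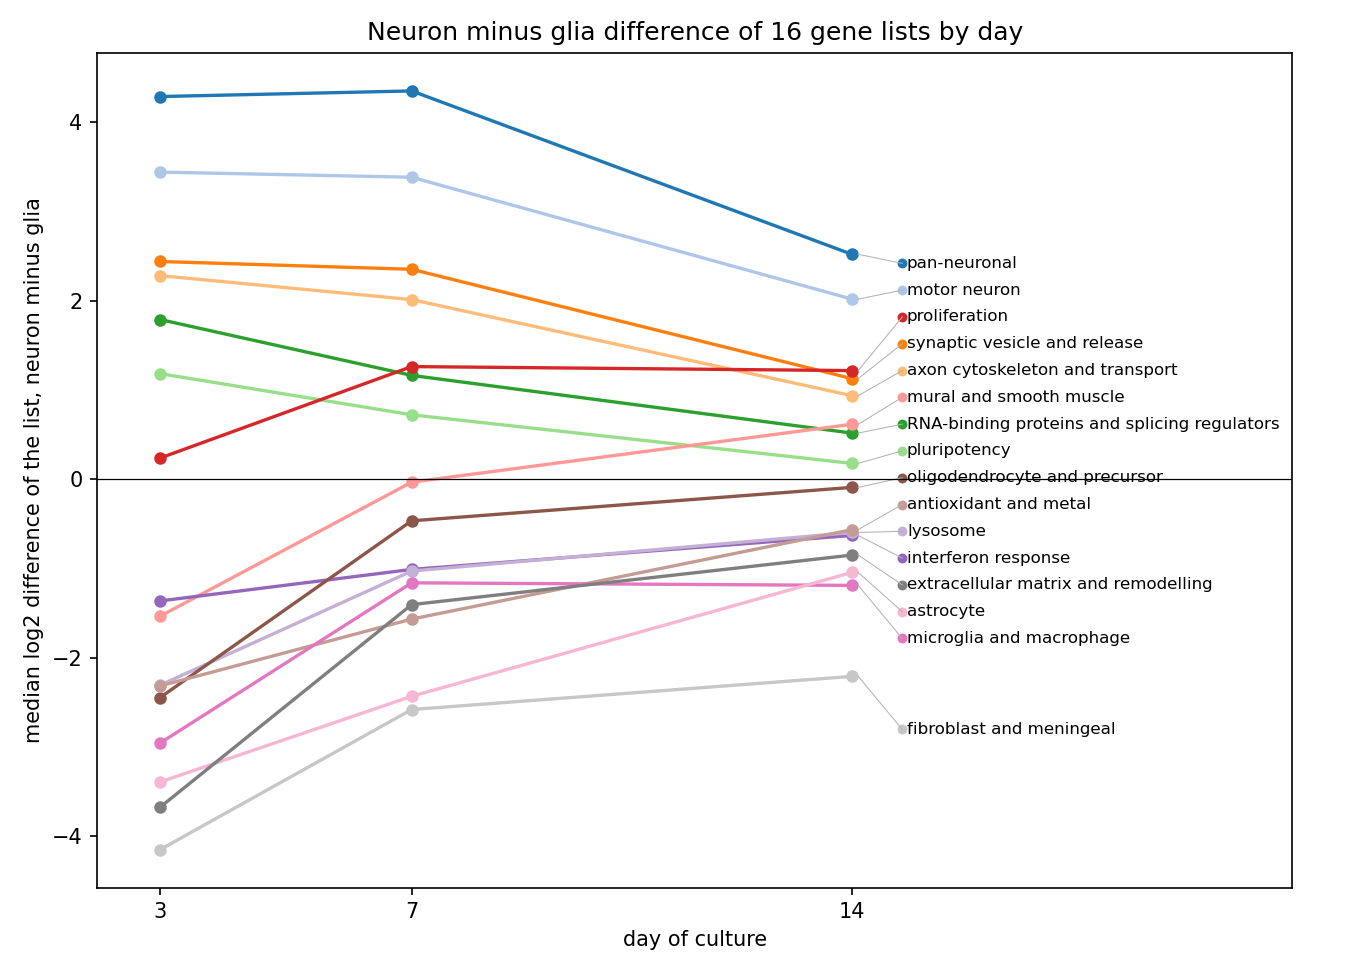
Median log2 difference, neuron minus glia, of 16 gene lists at days 3, 7 and 14, with day 3 from the 13 libraries and days 7 and 14 from the model of all 43 culture libraries. Each line is a list; pan-neuronal genes have medians of 4.35 at day 7 and 2.52 at day 14, and the 8 lists with negative medians other than mural cells lie closer to 0 at day 14 than at day 3.

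The levels behind these changes were read from the marker sums, which carry no test. The mean sum of the pan-neuronal list in neuron libraries was 9239, 6127 and 1558 RPKM at days 3, 7 and 14, against 509, 355 and 369 RPKM in glia libraries. That of the astrocyte list was 1363, 2339.7 and 3437 RPKM in neuron libraries, against 10506, 10471 and 8249.7 RPKM in glia libraries. That of mural cell genes was 315, 1358 and 2285 RPKM in neuron libraries, against 1451, 1676 and 1367 RPKM in glia libraries. By these sums the neuron and glia libraries were furthest apart at day 3 for neuronal and astrocyte genes, while the median log2 difference of pan-neuronal genes was as large at day 7 (4.35). The part of other cells in the later libraries was not tested.

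By gene, the largest rises of the difference at day 14 were those of the stress gene Nupr1, Ecrg4, the extracellular superoxide dismutase gene Sod3, Mt1, Thbs2, the lipopolysaccharide binding protein gene Lbp, Igfbp3 and Cryab, by 5.19 to 6.82. Sod3 was at 0.266 ± 0.166 RPKM in neuron libraries and 17.7 ± 2.80 RPKM in glia libraries at day 3, and at 94.4 ± 55.2 RPKM in neuron libraries and 14.3 ± 4.84 RPKM in glia libraries at day 14 (mean ± SD). It thus changed sides, with log2 differences of -3.95, -1.75 and 2.57 at days 3, 7 and 14. The largest falls were those of the peptide YY gene Pyy, Pax2, Mab21l2, Arhgap36, the doublecortin gene Dcx, Islr2, Lamp5 and Celf3, by -4.39 to -3.44. Dcx, which marks migrating young neurons, was at 71.5 ± 27.7 RPKM in neuron libraries and 0.884 ± 0.553 RPKM in glia libraries at day 3, and at 3.04 ± 1.06 RPKM in neuron libraries and 0.219 ± 0.135 RPKM in glia libraries at day 14. Among lists, 24 of 29 proliferation genes had a more positive difference at day 14 than at day 3, with medians of 0.24 at day 3, 1.26 at day 7 and 1.22 at day 14. The day 3 median was 1.03 within replicate 1 and -0.60 within replicate 2.

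An effect of glia genotype on the difference between the cells was called at 0 of 15334 genes (0%; limma interaction test, adjusted p under 0.05), with 358 at an unadjusted p under 0.05. In simulated data this test called 37.3% of genes set to a log2 change of 1 and 86.6% of those set to 2. Effects of that size can thus be missed. The neuron libraries from cultures with wild-type glia were 2, both of replicate 1. The difference between the cells was called as unlike between cultures of mutant and of wild-type neurons at 5 genes (0.0326%; limma interaction test, adjusted p under 0.05). A further limit, an unadjusted p under 0.05, was met by 1187 genes. The 5 called were Meg3, Mab21l1, Pmfbp1, Nxf3 and 1 entry without a current symbol, named after their values were seen, as they are all the calls. In each the neuron libraries of mutant cells were higher. Meg3, a maternally expressed noncoding RNA gene, was at 127, 147 and 123 RPKM in the 3 mutant neuron libraries, against 39.1, 35.7 and 39.7 RPKM in the 3 wild-type ones, with 18.01 to 28.2 RPKM over the glia libraries. Nxf3 was at 9.92, 10.4 and 11.4 RPKM in mutant neuron libraries, against 0.155, 0.386 and 0 RPKM in wild-type ones, with 0 to 0.270 RPKM over the glia libraries. The libraries of the 2 neuron genotypes do not overlap at these 2 genes. The same libraries made the calls, so this is largely built in and is not an independent test. The number of such genes depended on single libraries, being 209 without the replicate 2 library of mutant neurons with mutant glia and 45 without that of wild-type neurons with mutant glia. It was 1 when the replicate 1 neuron library of mutant neurons with wild-type glia, of wild-type neurons with mutant glia or of wild-type neurons with wild-type glia was left out, and likewise without either glia library of mutant glia with wild-type neurons. At a pseudocount of 0.1 the count was 1, with 0 higher in mutant neurons.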

How the data were processed

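Expression was measured by RNA sequencing in 43 libraries of mouse sandwich co-cultures, of which the 13 of day 3 were compared here (6 neuron, 7 glia). Per the labels' protocols, total RNA was taken with Trizol and RNeasy columns, and libraries were made by a standard Illumina or a Nextera protocol, the sources used here not saying which for each library. Bowtie and the mm9 build are named in the submitters' processing notes. The authors deposited RPKM values per gene, of which 27262 of 27389 entries hold values. The low values were whole multiples of 1 read (tolerance 0.02 reads) for 100% of the 22784 entries above 0, so that reads on genes could be recovered.

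From the deposited RPKM, values were rescaled by median-of-ratios factors. The filter kept genes that reached 1 in 2 or more libraries, and limma 3.58.1 in R 4.3.3 (trend) was fitted on log2(value + 1) with the replicate number as a block, with Benjamini-Hochberg adjustment over all genes tested and a threshold of 0.05. The 2-fold test was limma's treat with a log2 bound of 1. Pairs of libraries of a group differed by more than sampling noise (chi-square per gene 34.1 to 80.6). Same-numbered libraries of the same cell deviated together in 12 of 16 pairs (correlation over 0.1) and those of the other cell in 16 of 20, while no pair with different numbers reached it. Deviations were taken from the mean of each cell, which by itself pushes pairs with different numbers downwards. That none of them reached it is thus weak support. Not every pair passed, so the block rests on the labels' numbers. The fits were tested on simulated data.

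Genes named are the 15 largest differences in each direction, members of 45 lists, the 8 largest rises and falls by day, and Sod1, leaving out 1 of the first and some list members, which are not reported here; the list members printed as examples and the 6 promoters were chosen with their values seen. The members and lists were chosen with earlier results of these data known. The 15 largest in each direction were taken from genes called over 2-fold whose neuron and glia libraries do not overlap. Genes with near-identical copies are uncertain. Each library held 7.49 M to 29.3 M reads on genes.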

Additional observations from a re-analysis of the deposited data

Results flagged for a closer look

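The difference between the cells at day 14 differed from that at day 3 in 10486 genes by the limma interaction test. The largest rises were those of Nupr1 (6.82), Ecrg4 (6.69), Sod3 (6.52), Mt1 (5.72), Thbs2 (5.55), Lbp (5.48), Igfbp3 (5.21) and Cryab (5.19), on the log2 scale. The largest falls were those of Pyy (-4.39), Pax2 (-3.84), Mab21l2 (-3.75), Arhgap36 (-3.66), Dcx (-3.66), Islr2 (-3.61), Lamp5 (-3.52) and Celf3 (-3.44).

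The difference between the cells was called as unlike between cultures of mutant and of wild-type neurons at 5 genes by the limma interaction test. In mutant minus wild-type neuron cultures it was 3.18 for Nxf3, 1.91 for Pmfbp1, 1.85 for Meg3, 1.83 for Mab21l1 and 1.82 for an entry without a current symbol.

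In 1 library a gene lay far from the other libraries of its cell in 20 of 430 gene and cell combinations (4.65%), by Dixon's test, and chance gives about 1 in 20. In the replicate 1 neuron library of wild-type neurons with wild-type glia, Aqp1 was at 7.18 RPKM, against 0.646 to 1.83 RPKM in the others, Lcn2 at 3.03 RPKM, against 0.475 to 0.945 RPKM in the others and Reg3g at 2.04 RPKM, against 0 to 0.332 RPKM in the others. In the replicate 2 library of mutant neurons with mutant glia, Cdkn1c was at 35.1 RPKM, against 52.3 to 60.3 RPKM in the others. In the replicate 1 glia library of wild-type glia with wild-type neurons, the values that stood apart were those of Cntf (125 RPKM, against 34.6 to 59.96 RPKM in the others), Igfbp3 (1492 RPKM, against 644 to 812 RPKM in the others), Lcat (149.6 RPKM, against 56.1 to 85.8 RPKM in the others), Ldhb (386 RPKM, against 227 to 283 RPKM in the others), Tbk1 (26.6 RPKM, against 14.7 to 16.8 RPKM in the others), Tubb2a (301 RPKM, against 146 to 183 RPKM in the others), Vim (6658 RPKM, against 2919 to 3857 RPKM in the others) and Yap1 (18.99 RPKM, against 21.5 to 23.5 RPKM in the others). In the replicate 1 library of mutant glia with mutant neurons, Nfia was at 7.49 RPKM, against 19.9 to 26.8 RPKM in the others, Slc1a2 at 43.5 RPKM, against 65.2 to 79.8 RPKM in the others and Sox11 at 2.34 RPKM, against 5.49 to 8.54 RPKM in the others. In the replicate 2 library of the same pairing, Kcnj10 was at 259 RPKM, against 163 to 197 RPKM in the others, Dcx at 2.63 RPKM, against 0.586 to 1.14 RPKM in the others and Nxf3 at 0.270 RPKM, against 0 to 0.0632 RPKM in the others. C3 was at 212 RPKM, against 147 to 165 RPKM in the others, in the library of wild-type glia with mutant neurons, and Pyy was at 0.128 RPKM, against 0 RPKM in the others, in the replicate 2 library of wild-type glia with wild-type neurons.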

How the results depend on the processing

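The count of genes over 2-fold stayed within 1.5 times the value given (4440) under all alternatives run, from 3574 to 5831, and with each library left out in turn it was 4271 to 4429. Without the replicate block it was 4077, and among the genes named the calls of Gpi1, Matr3, Rapsn and Sox2 were lost. Fitted as pairs, the 5 pairs of neuron and glia libraries of the same pairing and replicate number gave a count of 4133. The plain count (12290) ranged from 8867 to 13825, and from 11961 to 12187 with 1 library left out. None of the 4440 changed sign under any alternative in which it was tested, all of which use libraries that made the calls. Scaling moved the split. Values rescaled to a common sum gave 2385 of 4518 calls higher in neurons (52.8%, with a median log2 difference over all genes of 0.28), values as deposited gave 1491 of 4353 (34.3%, median -0.13), and the values given hold 41.2% (median 0.03). The day 14 count (10486) was 9989 to 10440 with 1 day 3 library left out, 9473 without the replicate block, and 10423 with values as deposited, of which 6483 were positive. The glia genotype count of 0 was 0 to 4 with 1 library left out, the 4 arising without the replicate 1 library of wild-type glia with wild-type neurons. The neuron genotype count of 5 was 1 with values as deposited, 1 at a pseudocount of 0.1 (with 0 higher in mutant neurons), 4 without the replicate block and 1 to 209 with 1 library left out. The cause was not tested. Of the 215 genes named in the text, 16 lost and 13 gained a 2-fold call under some alternative, and 0 of the called ones reversed. Precision is limited by 2 neuron libraries in replicate 2 and by genes near 0, where the pseudocount sets the difference.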
